A study of Homo sapiens with 8 samples.

Results

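The noncoding host genes of small nucleolar RNAs (snoRNAs) were followed in Panc 10.05, a cell line established from a human pancreatic cancer. The 10 genes GAS5, SNHG1, SNHG5, SNHG6, SNHG7, SNHG8, SNHG12, SNHG15, SNHG16 and ZFAS1 were taken by symbol from the table of 58870 genes, and each symbol matched exactly 1 row. The control group was 4 libraries of Panc 10.05 control cells, and the compared group was 4 libraries of Panc 10.05 cells labelled ELAPOR1 overexpression. ELAPOR1 is an endosome-lysosome protein linked to apoptosis and autophagy. The means of overexpression, any vector and promoter, and the use of a clone or a pool are not given in the sources used here. Nor is the time since overexpression began. The study asked whether ELAPOR1 moves these cells toward the classical/progenitor subtype and changes their metabolism.

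SnoRNAs guide the chemical modification of ribosomal RNA, box C/D members directing 2′-O-methylation and box H/ACA members directing pseudouridylation. Most human snoRNAs are cut from the introns of host genes. Many hosts, like the messenger RNAs of ribosomal proteins, begin with a terminal oligopyrimidine (TOP) tract, a C followed by a run of C and T (U in the RNA). TOP messenger RNAs are translated under the control of mTORC1. Spliced noncoding hosts such as GAS5 are thought to be bound by ribosomes and removed by nonsense-mediated decay, so that their level depends on translation as well as transcription.

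The first 30 bases of an annotated transcript are shown for each host except SNHG6, because the host genes were to be compared with ribosomal protein genes, whose transcripts start in the same way. They were taken from GENCODE release 29 on GRCh38, and capitals mark the run of C and T at the first base. Where several transcripts began with such a run of at least 5 bases, the start shared by the most transcripts was taken, and otherwise the start with the longest run.
GAS5: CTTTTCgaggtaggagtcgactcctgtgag
SNHG16: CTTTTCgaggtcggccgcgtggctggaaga
SNHG5: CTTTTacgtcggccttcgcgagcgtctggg
SNHG8: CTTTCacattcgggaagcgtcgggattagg
ZFAS1: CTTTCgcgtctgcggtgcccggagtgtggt
SNHG12: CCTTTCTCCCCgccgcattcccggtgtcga
SNHG1: CTCCTgtctgcaggatttacgcgcacgttg
SNHG7: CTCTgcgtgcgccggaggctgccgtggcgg
SNHG15: CCgccatcctgggccccacgtgttgcctga
A transcript starting with C and at least 4 further pyrimidines was annotated for 8 of the 10 hosts, SNHG7 and SNHG15 being those without. For SNHG1 this was 1 of 25 transcripts, and for GAS5 it was 6 of 29. For SNHG6, whose sequence is not shown, it was 3 of 5, with a run of 7 bases. The same kind of start was annotated for 16.6% of the tested genes and for 83.5% of the 79 cytosolic ribosomal protein genes. Genes with many annotated transcripts have more chances to hold such a start, and the start used in these cells was not measured.

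The stretch from 45 bases before to 15 bases after the annotated start is shown next for the 5 hosts whose promoter holds TATAA, marked in capitals. These are from the RefSeq promoter table (GRCh38.p14), which held 8 of the 10 hosts, all but SNHG6 and SNHG15.
SNHG5: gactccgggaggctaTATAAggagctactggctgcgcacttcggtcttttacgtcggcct
SNHG7: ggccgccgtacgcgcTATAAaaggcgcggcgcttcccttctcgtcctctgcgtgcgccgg
SNHG8: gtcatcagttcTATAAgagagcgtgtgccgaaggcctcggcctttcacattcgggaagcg
SNHG12: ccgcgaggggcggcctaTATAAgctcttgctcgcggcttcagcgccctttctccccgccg
ZFAS1: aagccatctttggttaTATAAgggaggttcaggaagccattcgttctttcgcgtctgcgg
They lie at chr6:85678719-85678778 (minus strand), chr9:136728170-136728229 (minus), chr4:118278717-118278776 (plus), chr1:28581859-28581918 (minus) and chr20:49278597-49278656 (plus), in that order. TATAA was searched in the window from 45 to 16 bases before the start and was found on the gene's strand in 5 of the 8 host promoters, and these letters were not in the windows of GAS5, SNHG1 and SNHG16. The same window held it in 4.09% of all 35116 promoters and in 7 of 78 ribosomal protein promoters. On the opposite strand it was found in 1 host, ZFAS1, where it overlaps the other match, and in 1.95% of all promoters. The RefSeq starts of GAS5 and SNHG1 lie upstream of the transcript starts shown above, so their windows cover other sequence.

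The library totals were 16558600 to 18128757 estimated counts in control and 13765509 to 17258166 in ELAPOR1 libraries (exact permutation p = 0.143, two-sided, n = 4 each). ELAPOR1 itself was at 0.150 ± 0.107 CPM (counts scaled to library size, with TMM factors) in control and at 427 ± 2.28 CPM in ELAPOR1 libraries (SD, n = 4 each), so every library matched its label. The epithelial markers EPCAM, KRT7, KRT8, KRT18, KRT19 and CDH1 were at 328 CPM or more in every library. Of 6 fibroblast markers, COL1A2, DCN and LUM had no count in any library, and the summed level was 2.95 to 4.32 CPM in control and 2.71 to 3.19 CPM in ELAPOR1 libraries. Of 5 leukocyte and blood markers, CD3E had no count, PTPRC at most 1 and LYZ at most 2. Their summed level was 84.0 to 90.2 CPM in control and 73.1 to 79.1 CPM in ELAPOR1 libraries, nearly all of it CD68, a lysosomal protein that epithelial cells also express. HBB, a globin, was lower at 2.14 ± 0.132 and 0.408 ± 0.163 CPM (SD, n = 4 each). The part of these markers in the results was not tested. The labels do not say whether the libraries came from separate cultures, so p-values measure the spread between these libraries, which may be technical.

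All 10 host genes passed the filter on low counts. In ELAPOR1 cells 7 were lower and 3 were not called, at an edgeR adjusted p-value under 0.05. Among all 13860 tested genes 44.7% were called, 22.1% lower and 22.6% higher. The median log2 fold change (log2FC, ELAPOR1 against control) was -0.49 over the 10 hosts, beside 0.00 over all tested genes. Values split into 6 hosts that fell by 0.46 to 0.69 on the log2 scale, SNHG16 with a small fall, and 3 hosts near 0. A fall of at least 0.45 was called for 6.33% of all tested genes, a limit set after the hosts' values were seen. The groups did not overlap for 6 of the 10 hosts, and for 39.2% of all tested genes (19.3% when only those lower in ELAPOR1 are counted). In RNA from whole cultures, fewer cells of a kind and less RNA per cell cannot be told apart.

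**Figure D1:**
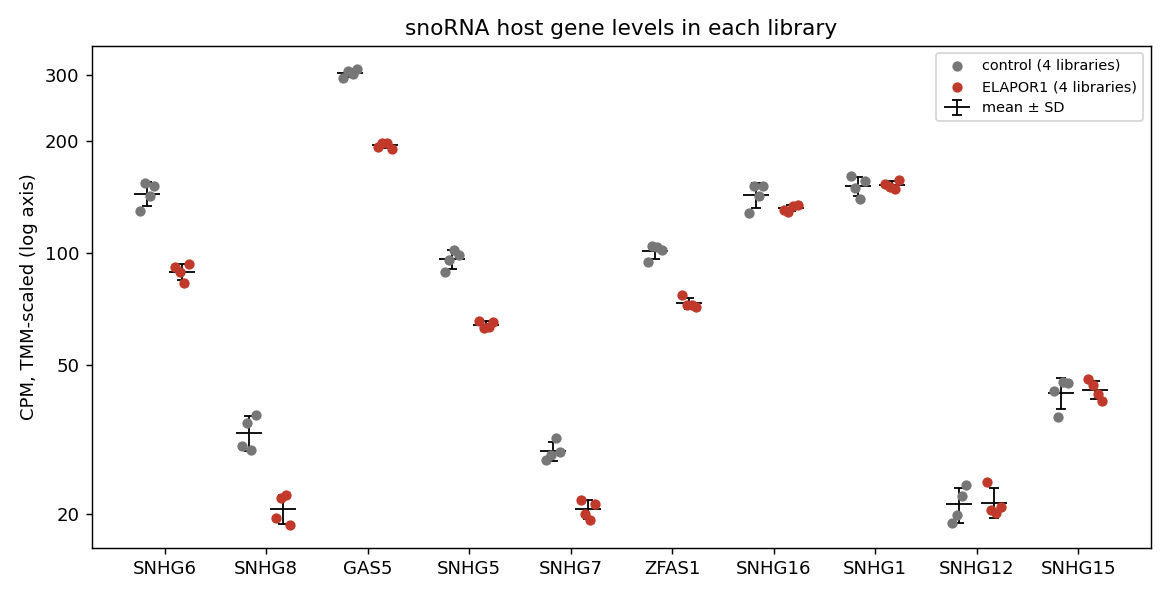
Level of each host gene in each library, in TMM-scaled CPM on a log axis, with points for libraries and bars for the mean ± SD of 4 libraries per group. GAS5 sits between 295 and 312 CPM in control and between 191 and 197 CPM in ELAPOR1 libraries, while the libraries of SNHG1, SNHG12, SNHG15 and SNHG16 overlap between groups.

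GAS5 (ENSG00000234741.8, growth arrest-specific 5) was the most abundant host by CPM. It lies at chr1:173863900-173868882 on the minus strand in GRCh38, RefSeq places 11 snoRNAs inside it, 10 of them box C/D, and its RNA has been described as a decoy of the glucocorticoid receptor. The control libraries held 295, 308.5, 303 and 312 CPM and the ELAPOR1 libraries 193, 197, 197 and 191 CPM. Every ELAPOR1 library was thus far below every control library. The log2FC was -0.65 (SE 0.0306, edgeR adjusted p = 2.8e-18), a fall of 36.2%. ZBTB37, a zinc finger gene on the other strand that overlaps GAS5 by 801 bases with no overlap between exons, was also lower, at 30.7 ± 1.18 CPM in control and 21.9 ± 3.05 CPM in ELAPOR1 libraries (SD, n = 4 each, edgeR adjusted p = 3.9e-06).

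SNHG6 (ENSG00000245910.8, chr8:66921684-66926398, minus strand) hosts SNORD87, a box C/D snoRNA. Its control libraries held 130, 155, 142 and 151 CPM and its ELAPOR1 libraries 91.8, 89.0, 83.1 and 93.3 CPM. SNHG6 had the largest fall of the 10 hosts in size, with a log2FC of -0.69 (SE 0.0479, edgeR adjusted p = 1.6e-11) and no overlap between groups. Its first place is not fixed. With GC and length trends removed GAS5 had -0.66 and SNHG6 -0.63, and without ELAPOR1 replicate 3 SNHG8 had -0.72 and SNHG6 -0.66. Of its 1247 exonic bases, 365 overlap MCMDC2 on the other strand, which had at most 10 counts in a library.

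SNHG8 (ENSG00000269893.7, chr4:118278709-118279823, plus strand) hosts SNORA24, a box H/ACA snoRNA, and is the shortest of the hosts with 923 exonic bases. In control it was at 30.3, 35.1, 29.6 and 36.9 CPM and in ELAPOR1 libraries at 19.5, 22.02, 22.5 and 18.7 CPM. Controls differed among themselves more than for most other hosts (10.8% of the mean), yet the lowest of them lay above the highest ELAPOR1 library. The log2FC was -0.68 (SE 0.0764, edgeR adjusted p = 9.4e-09).

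SNHG5 (ENSG00000203875.11, chr6:85660950-85678748, minus strand) hosts SNORD50A and SNORD50B. Control libraries were at 89.1, 96.1, 102 and 98.6 CPM and ELAPOR1 libraries at 65.9, 62.8, 63.3 and 65.3 CPM. The ELAPOR1 libraries were close to one another and all below control, and the log2FC was -0.58 (SE 0.0443, edgeR adjusted p = 6.1e-13).

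SNHG7 (ENSG00000233016.6, chr9:136721366-136728184, minus strand) hosts SNORA17A and SNORA17B. It stood at 27.9, 28.7, 31.9 and 29.3 CPM in control and at 21.8, 19.96, 19.2 and 21.3 CPM in ELAPOR1 libraries. No ELAPOR1 library reached the lowest control, and the log2FC was -0.51 (SE 0.0684, edgeR adjusted p = 1.4e-07). DIPK1B, which overlaps it on the other strand, had at most 1 count in a library.

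ZFAS1 (ENSG00000177410.12, chr20:49278178-49295738, plus strand) starts antisense to the 5′ end of ZNFX1 and hosts SNORD12, SNORD12B and SNORD12C. Its control libraries were at 94.7, 104, 104 and 102 CPM and its ELAPOR1 libraries at 77.2, 72.8, 72.4 and 71.6 CPM. The groups were apart in every library, with a log2FC of -0.46 (SE 0.0421, edgeR adjusted p = 5.4e-11). ZNFX1, a helicase-domain gene of the antiviral response, went the other way, from 90.2 ± 4.99 to 129 ± 3.13 CPM (SD, n = 4 each), a log2FC of 0.52 (SE 0.0400, edgeR adjusted p = 9.7e-13). Both genes share 249 exonic bases on opposite strands, and the use of strand in counting is not given in the sources used here, so reads from that stretch could have been given to either.

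SNHG16 (ENSG00000163597.14, chr17:76557766-76565348, plus strand) hosts SNORD1A, SNORD1B and SNORD1C. It held 128, 151.5, 142 and 152 CPM in control and 131, 129, 134 and 134 CPM in ELAPOR1 libraries. Control replicate 1 lay below all ELAPOR1 libraries and the other 3 controls above them. The log2FC of -0.12 (SE 0.0423, edgeR adjusted p = 0.0242) was past the threshold, but total count scaling gave an adjusted p of 0.0604. Leaving out control replicate 2 gave 0.115, control replicate 4 gave 0.0791, ELAPOR1 replicate 1 gave 0.0647 and ELAPOR1 replicate 2 gave 0.0750, while without control replicate 1 the log2FC was -0.17 (adjusted p = 3.2e-05). The adjusted p ranged from 3.15e-05 to 1 over all alternatives, the last from the test against a 1.5-fold change. SNHG16 shares 1639 exonic bases with AC015802.6 on the other strand, a row at 4.49 ± 0.751 CPM in control and 3.13 ± 0.746 CPM in ELAPOR1 libraries.

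The remaining 3 hosts were not called, and their libraries overlapped. SNHG1 (ENSG00000255717.6, chr11:62851988-62855914, minus strand), host of SNORD22 and of SNORD25 to SNORD31, was at 161, 149, 140 and 156 CPM in control and at 153, 150.5, 149 and 157 CPM in ELAPOR1 libraries. Its log2FC was 0.01 with a 95% confidence interval from -0.07 to 0.09 (edgeR adjusted p = 0.867). The interval is narrow and does not reach the change of any of the 6 hosts with clear falls.

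SNHG12 (ENSG00000197989.14, chr1:28578538-28583132, minus strand), host of SNORA44, SNORA61, SNORA16A and SNORD99, was at 18.9, 19.9, 22.3 and 23.9 CPM in control and at 24.4, 20.5, 20.1 and 20.8 CPM in ELAPOR1 libraries. The interval of its log2FC ran from -0.14 to 0.18 around 0.02 (edgeR adjusted p = 0.877). SNHG15 (ENSG00000232956.8, chr7:44983023-44986961, minus strand), host of SNORA9, was at 42.6, 36.4, 45.1 and 44.8 CPM in control and at 45.9, 44.2, 42.0 and 40.3 CPM in ELAPOR1 libraries. Its interval ran from -0.10 to 0.15 around 0.03 (edgeR adjusted p = 0.732).

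Per kilobase of annotated exon (the union over all transcripts of a gene), SNHG6 was the highest host in control, at 116 ± 8.84 CPM per kilobase, followed by GAS5 at 83.9 ± 2.05 (SD, n = 4 each). ZFAS1, SNHG1, SNHG8 and SNHG5 came next, between 45.1 and 34.4 CPM per kilobase, and each of them overlapped its neighbour in that order. SNHG16, SNHG15, SNHG7 and SNHG12 followed at 26.7, 11.6, 6.78 and 4.98 CPM per kilobase with no overlap between neighbours. In ELAPOR1 libraries SNHG6 and GAS5 kept the first places at 71.6 and 53.5 CPM per kilobase. There SNHG1 (40.5 ± 0.937) lay above ZFAS1 (32.8 ± 1.11) in every library, and SNHG12 (5.03 ± 0.463) overlapped SNHG7 (4.73 ± 0.272), which it had been below in control. Exon unions include retained introns, so these levels are low estimates for genes whose main transcript is short.

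The snoRNAs themselves were not measured. RefSeq places 37 snoRNAs inside the 10 hosts, 28 named as box C/D and 8 as box H/ACA. Of these, 22 had a row in the table under the same symbol. None of those rows reached 1 estimated count in any library, the highest value being 0.99. Rows under another name were not looked up. A change of a host transcript was therefore not followed to its snoRNAs.

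Ribosomal protein genes, whose messenger RNAs are the best known TOP transcripts, fell almost without exception. Of 79 tested, 77 were lower (97.5%, against 22.1% of all tested genes), with a median log2FC of -0.37. RPL3, a core protein of the large subunit, had the largest fall, from 1893 ± 111 to 1269 ± 25.4 CPM (log2FC -0.58, SE 0.0320, edgeR adjusted p = 2.0e-14). The genes not called were RPSA (log2FC 0.01, edgeR adjusted p = 0.913) and RPL14 (log2FC -0.06, edgeR adjusted p = 0.153). Ribosomal protein genes have many near-identical pseudogene copies, so their estimated counts depend on how shared reads were divided. The fitted falls of SNHG6, SNHG8, GAS5 and SNHG5 exceeded that of every tested ribosomal protein gene. For SNHG7, 1 ribosomal protein gene had a larger fall, and for ZFAS1, 9 had. The 95% confidence interval of RPL3 (-0.64 to -0.51) overlaps those of SNHG5 (-0.67 to -0.49) and SNHG8 (-0.83 to -0.52). It also overlaps those of GAS5 (-0.71 to -0.59) and SNHG6 (-0.79 to -0.59). The differences between these hosts and RPL3 were not tested, so none of them is set apart from it.

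**Figure D2:**
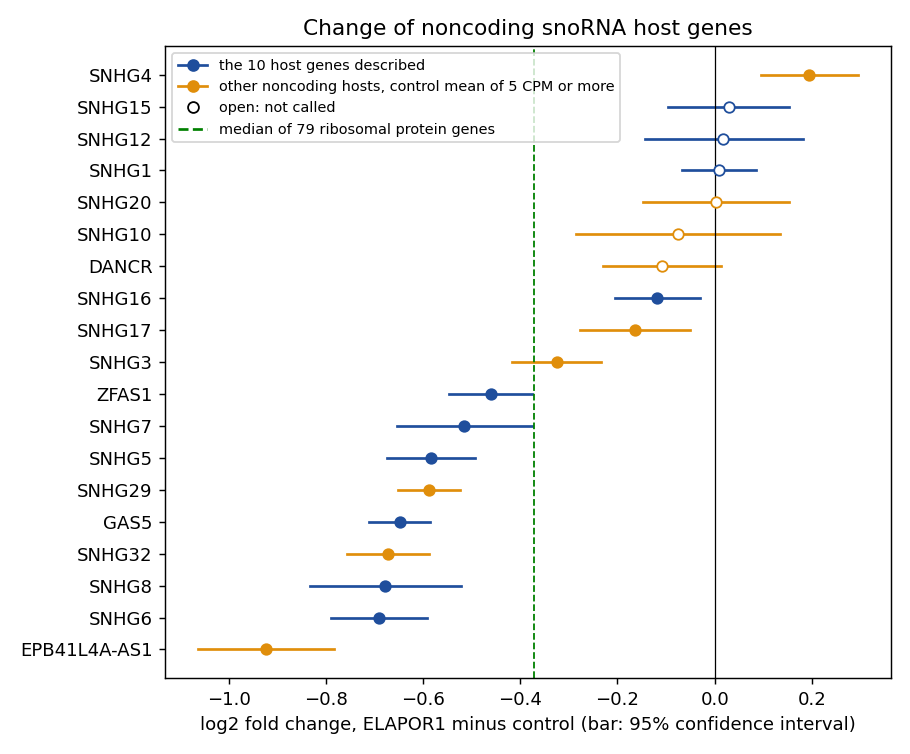
Log2FC of noncoding snoRNA host genes with 95% confidence intervals, in blue for the 10 hosts described and in orange for other noncoding hosts with a control mean of at least 5 CPM, open circles marking genes not called. The intervals of GAS5, SNHG5, SNHG6 and SNHG8 lie wholly below the dashed median of the ribosomal protein genes (-0.371). Those of SNHG7 and ZFAS1 reach almost to it (upper limits -0.376 and -0.375), and those of SNHG1, SNHG12, SNHG15 and SNHG16 lie wholly above it.

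The counts of each host were set against the summed counts of the 79 ribosomal protein genes of the same library, a ratio that needs no scaling between libraries. This test was chosen after the values were seen, and with 4 against 4 libraries its smallest possible p is 0.0286 (0.0317 after Benjamini-Hochberg adjustment over the 10 hosts). Ribosomal protein genes took 7.42 ± 0.34% of all counts in control and 5.86 ± 0.096% in ELAPOR1 libraries, and the 10 hosts together 0.106 ± 0.0038% and 0.0817 ± 0.00082% (SD, n = 4 each). Summed over the hosts, host counts per 1000 ribosomal protein counts were 14.6, 14.2, 14.1 and 14.2 in control and lay at 14.1 or below in every ELAPOR1 library, so the sum moved nearly in step. Single hosts moved away from it in both directions.

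GAS5 went from 4.08 ± 0.106 to 3.34 ± 0.0790 counts per 1000 ribosomal protein counts (exact permutation adjusted p = 0.0317, two-sided, lower in 4 of 4 ELAPOR1 libraries). SNHG6 went from 1.93 ± 0.0756 to 1.53 ± 0.0705, SNHG5 from 1.29 ± 0.0436 to 1.10 ± 0.0268, SNHG7 from 0.394 ± 0.0227 to 0.353 ± 0.0178 and ZFAS1 from 1.35 ± 0.0309 to 1.26 ± 0.0271 (exact permutation adjusted p = 0.0317 each). These 5 hosts thus fell more than the summed ribosomal protein counts did. SNHG8 went from 0.440 ± 0.0358 to 0.355 ± 0.0336 with groups that met at 0.392 (exact permutation adjusted p = 0.0571).

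The ratio of SNHG1 went the opposite way, from 2.03 ± 0.194 to 2.62 ± 0.0749 counts per 1000 ribosomal protein counts (exact permutation adjusted p = 0.0317, two-sided). SNHG15 went from 0.565 ± 0.0597 to 0.739 ± 0.0312, SNHG12 from 0.283 ± 0.0209 to 0.368 ± 0.0288 and SNHG16 from 1.91 ± 0.0678 to 2.27 ± 0.0772 (exact permutation adjusted p = 0.0317 each). All 4 ELAPOR1 libraries were above all 4 controls for each of these hosts in this ratio. The ribosomal protein share of counts fell from 7.42% to 5.86%, so a host with an unchanged share of counts rises in this ratio. In CPM, SNHG1, SNHG12 and SNHG15 hardly changed (log2FC 0.01, 0.02 and 0.03) and SNHG16 was lower (log2FC -0.12). The ratio therefore does not show a rise of these hosts themselves. Within the hosts, GAS5 counts divided by SNHG1 counts of the same library were 1.84, 2.07, 2.17 and 2.0 in control and 1.26, 1.31, 1.32 and 1.22 in ELAPOR1 libraries.

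**Figure D3:**
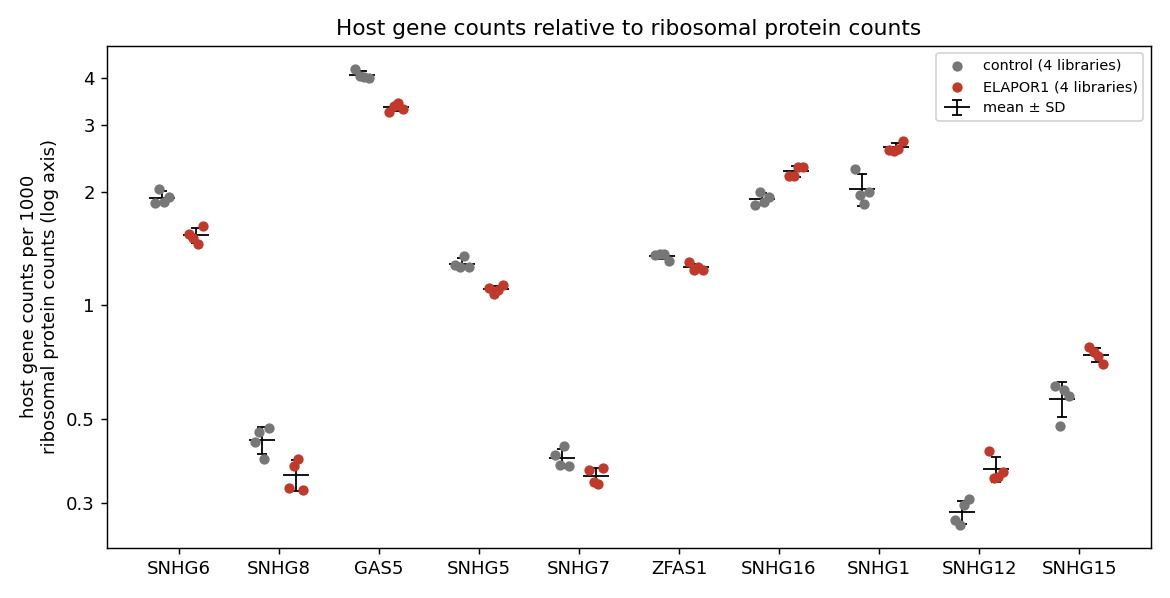
Counts of each host per 1000 ribosomal protein counts of the same library, on a log axis, with points for libraries and bars for the mean ± SD of 4 libraries per group. GAS5, SNHG5, SNHG6, SNHG7 and ZFAS1 are lower in every ELAPOR1 library than in every control, SNHG1, SNHG12, SNHG15 and SNHG16 are higher in every one, and the groups of SNHG8 meet.

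The 8 hosts with an annotated tract had a median log2FC of -0.52 and 75% of them were called lower, against -0.24 and 50% for the 2 hosts without one, too few to compare. Single hosts went both ways. Among the 6 hosts with clear falls, SNHG7 had no annotated start of the kind, while SNHG12, with the longest run shown, was not called and SNHG16, which shares its CTTTTC start with GAS5, fell little. Over all tested genes, those with such a start had a median log2FC of -0.04 and 30% were called lower, against 0.01 and 20.6% for genes without one. Ribosomal protein genes were called lower at 98.5% with such a start and at 92.3% without one (medians -0.38 and -0.34). Such a start was annotated for 19 of 23 other TOP messenger RNAs, and the shares were 89.5% with it and 100% without. It was annotated for 5 of 15 other noncoding hosts, with shares of 40% and 30%. These groups are also too small to compare. TATAA was likewise found in both kinds of host, in SNHG5, SNHG7, SNHG8 and ZFAS1 among those that fell and in SNHG12 among those not called.

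Control replicate 1 had the lowest CPM among the controls for 7 of the 10 hosts and the highest for SNHG1, and its ribosomal protein share of 6.94% was the lowest of the controls (7.49% to 7.73% in the others). Without it, 7 hosts were still called, and the median log2FC was -0.52 for the hosts and -0.41 for the ribosomal protein genes. Its part in the values was not tested beyond this.

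Other noncoding snoRNA hosts were read from a list of 20 genes, of which 15 were tested, 5 were lower and 2 were higher. For this list and those that follow, the shares over all tested genes are 22.1% lower and 22.6% higher. EPB41L4A-AS1, host of SNORA13, fell from 32.96 ± 2.04 to 17.4 ± 0.787 CPM (log2FC -0.92, SE 0.0687, edgeR adjusted p = 3.8e-13), more than any of the 10 hosts above. SNHG32 (listed as C6orf48) fell from 138 ± 3.68 to 86.3 ± 5.72 CPM (log2FC -0.67, edgeR adjusted p = 3.2e-15) and SNHG29 from 328 ± 11.2 to 218 ± 4.06 CPM (log2FC -0.59, edgeR adjusted p = 6.9e-17). SNHG3 (log2FC -0.33, edgeR adjusted p = 3.2e-07) and SNHG17 (log2FC -0.16, edgeR adjusted p = 0.016) fell by less. SNHG4 rose from 56.1 ± 2.94 to 64.2 ± 3.16 CPM (log2FC 0.19, edgeR adjusted p = 0.0014) and SNHG11 from 4.64 ± 0.354 to 6.11 ± 0.379 CPM (log2FC 0.40, edgeR adjusted p = 0.016). The median over the 15 genes was -0.11.

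The wider set of TOP messenger RNAs, translation factors for the most part, was lower for 21 of 23 genes, with a median log2FC of -0.37. EIF4B, a helicase cofactor of translation initiation, fell from 1024 ± 27.5 to 644 ± 11.1 CPM (log2FC -0.67, edgeR adjusted p = 5.8e-20), about the change of GAS5. IPO5 (log2FC 0.06, edgeR adjusted p = 0.13) and IPO7 (log2FC -0.07, edgeR adjusted p = 0.16) were not called.

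Of 17 tested genes for proteins that bind snoRNAs or assemble their particles, 8 were higher and 2 lower, with a median log2FC of 0.07. NOP58, a core protein of box C/D particles, rose from 142 ± 7.14 to 187 ± 3.42 CPM (log2FC 0.40, edgeR adjusted p = 3.0e-11), and NHP2, a core protein of box H/ACA particles, fell from 115 ± 3.42 to 102 ± 3.17 CPM (log2FC -0.17, edgeR adjusted p = 0.00028). FBL, the methyltransferase of box C/D particles, was at 183 CPM in control and 188 CPM in ELAPOR1 libraries (edgeR adjusted p = 0.43).

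Nonsense-mediated decay factors were higher for 8 of 16 genes, and the other 8 were not called (median 0.10). SMG1, the kinase that phosphorylates UPF1, rose from 112 ± 6.17 to 146 ± 5.40 CPM (log2FC 0.39, edgeR adjusted p = 5.8e-10), and UPF1, the central helicase, from 153 to 193 CPM (log2FC 0.34, edgeR adjusted p = 1.3e-09). Of 8 messenger RNAs reported as targets of this decay, 3 were higher, led by GADD45A (log2FC 0.37, edgeR adjusted p = 1.7e-05), and 3 were lower, led by GABARAPL1 (log2FC -0.66, edgeR adjusted p = 3.3e-12).

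Genes of mTORC1 and of proteins that bind TOP tracts were split, with 8 of 25 higher and 7 lower (median 0.01). MTOR, the kinase itself, rose from 65.6 ± 3.73 to 83.2 ± 2.75 CPM (log2FC 0.34, edgeR adjusted p = 1.1e-07), and EIF4EBP1, a repressor of translation initiation, fell from 40.1 ± 4.75 to 29.6 ± 0.961 CPM (log2FC -0.43, edgeR adjusted p = 5.4e-06). LARP1, which binds the cap and TOP tract, was at 509 CPM in control and 548.5 CPM in ELAPOR1 libraries (log2FC 0.11, edgeR adjusted p = 0.0038). Transcript levels do not report the activity of the mTORC1 kinase.

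Long noncoding RNAs that host no snoRNA were lower for 4 of 11 genes, and 7 were not called (median -0.03). The nuclear RNAs MALAT1 (log2FC -0.46, edgeR adjusted p = 7.7e-11) and NEAT1 (log2FC -0.30, edgeR adjusted p = 7.2e-10) were among the lower ones, and LINC-PINT had the largest fall (log2FC -0.59, edgeR adjusted p = 0.00068), while NORAD (log2FC 0.06, edgeR adjusted p = 0.17) and TUG1 (log2FC 0.03, edgeR adjusted p = 0.54) were not called.

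**Figure D4:**
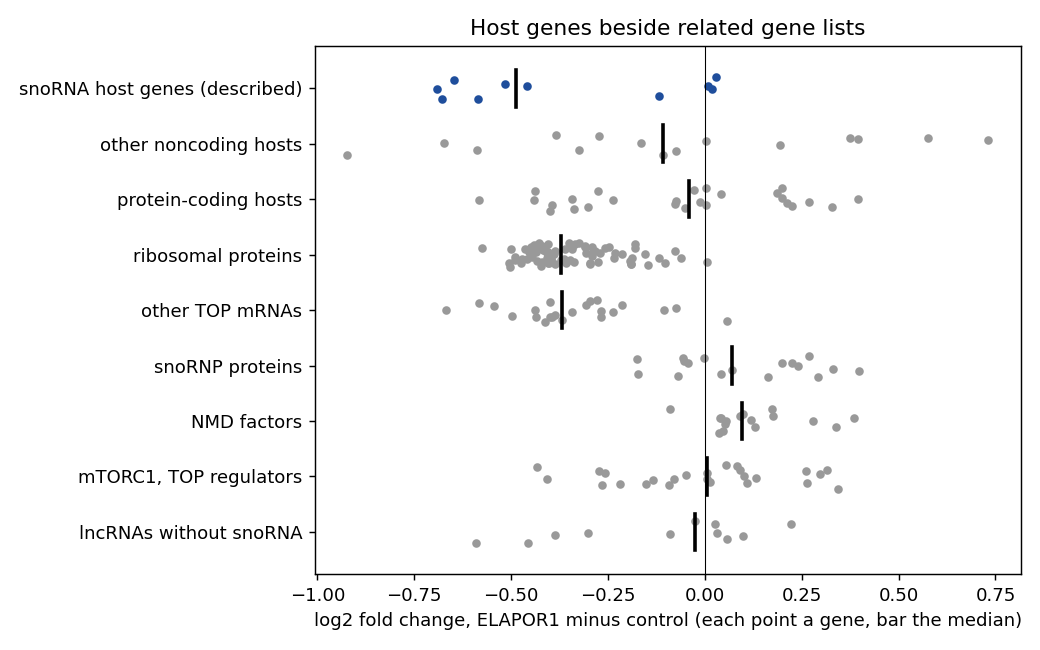
Log2FC of the tested genes of each list, 1 point a gene, with a bar at the median. The 10 hosts fall into a group from -0.69 to -0.46 and a group from -0.12 to 0.03, around the ribosomal protein genes with their median of -0.37.

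Genes of like profile were named by the root mean square difference of log2(CPM + 1), taken from the control mean, over the 8 libraries, among 10703 genes averaging 5 CPM or more. Nearest to the median profile of the 10 hosts were RPL37 (0.0190), RPS25 (0.0226), CD99 (0.0228, listed again with the same counts for its Y copy) and RPL17 (0.0251). Nearest to GAS5 were TFPI, VSIR, GABARAPL1, CCN1 and DENND3 (0.0335 to 0.0409), none of them a ribosomal protein gene. Distances of this kind follow mostly from the size of the difference between groups.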

How the data were processed

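RNA from 8 samples of the cell line was sequenced. The authors deposited estimated counts per gene from RSEM, unscaled between libraries, and 15.0% of the nonzero values were not whole. Per the submitters' processing notes, cutadapt, STAR, RSEM and DESeq2 were named with the build hg38. Versions, annotation release and the use of strand are not given in the sources used here. All 58870 rows name a gene.

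Expected counts were rounded, filtered with filterByExpr, scaled with TMM and compared with the robust quasi-likelihood test of edgeR 4.0.16 in R 4.3.3 (13860 genes, Benjamini-Hochberg adjustment, called under 0.05). The standard error is the log2 fold change divided by the square root of F. Ratios were compared with exact permutation tests (scipy 1.17.1). The procedure was tested on simulated counts. Positions, exonic lengths and overlaps are from GENCODE release 29. Among the hosts, GAS5 and SNHG8 have earlier gene versions there (ENSG00000234741.7 and ENSG00000269893.6) than in the counted rows. Their spans and lengths may therefore differ from those counted.

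The hosts and the 14 comparison lists, recalled from general knowledge, were chosen with earlier results of these data known. Named from each list were the called genes with the largest rise and fall, up to 8 called genes of the other noncoding hosts, and the genes nearest in profile. Genes named as not called, and UPF1, FBL, LARP1, MALAT1 and NEAT1, were chosen after their values were seen. Alternatives were other scalings, filters and tests (DESeq2 1.42.0, limma-voom 3.58.1), a replicate block, GC and length correction, stricter thresholds and leaving out each library. Plots were drawn with matplotlib 3.10.9.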

Additional observations from a re-analysis of the deposited data

How the results depend on the processing

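The falls of GAS5, SNHG5, SNHG6, SNHG7, SNHG8 and ZFAS1 kept their direction and stayed past the threshold in 21 of 22 alternatives each. The exception was the test against a 1.5-fold change (glmTreat in edgeR), which called 215 of all genes (1.55%) and 0 of the 10 hosts, 3 of them at an unadjusted p under 0.05, while DESeq2 and limma-voom called 7 hosts each. The call of SNHG16 was lost in 7 of 22. Leaving out 1 library gave 5557 to 6316 called genes, 6 to 7 called hosts, host medians of -0.52 to -0.46 and ribosomal protein medians of -0.41 (without control replicate 1) to -0.36. Removing GC and length trends gave a host median of -0.43, with and without the replicate block. SNHG1, not called, changed sign to -0.006 with these trends removed and to -0.007 with the block as well. When 1 library was left out, log2 fold changes ran from -0.028 to 0.034 for SNHG1, from -0.05 to 0.08 for SNHG12 and from -0.035 to 0.063 for SNHG15, so their signs are not fixed. Same-numbered libraries did not deviate together (correlations of -0.0213 to 0.0326), so the numbers were not taken as pairs, and the replicate block alone gave 5926 called genes, 7 called hosts and a host median of -0.49. Across the scalings tried, the median change over all genes lay between -0.007 and 0.022 on the log2 scale.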

Other observations

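Protein-coding hosts of snoRNAs went in both directions. Of 26 tested, 10 were lower and 8 higher (against 22.1% and 22.6% of all tested genes), with a median log2 fold change (log2FC) at -0.04. The lists are not separate. Among the lower genes EEF2, EEF1B2, EIF4A2, RACK1 and TPT1 are also on the TOP list. Among the higher ones NOP56 and DKC1 are also on the list of proteins that bind snoRNAs. TPT1, a TOP messenger RNA that hosts SNORA31, fell from 1557 ± 45.7 to 1040 ± 21.5 CPM (log2FC -0.58, edgeR adjusted p = 1.9e-18), and WDR43, a ribosome biogenesis factor, rose from 144.5 ± 8.41 to 190 ± 6.40 CPM (log2FC 0.40, edgeR adjusted p = 1.6e-10; SD, n = 4 each). TAF1D, RABGGTB and SLC25A3, named after their values were seen and not on the TOP list used here, were also lower, with log2FC of -0.34, -0.44 and -0.28.

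GAS5 takes its name from growth arrest, and proliferation genes were read beside it. Of 13 tested, 11 were higher (against 22.6% of all tested genes), led by PLK1 (log2FC 0.51, edgeR adjusted p = 2.7e-12). CCNA2 and CCNB1 were not called (0.03 and 0.01). For the glucocorticoid receptor, of which GAS5 has been described as a decoy, NR3C1 was at 109 CPM in control and 111 CPM in ELAPOR1 libraries (edgeR adjusted p = 0.82). Of 8 tested genes of the receptor and its targets 50% were called, near the 44.7% of all tested genes. The 2 higher ones were SGK1 (log2FC 0.64, edgeR adjusted p = 0.00012) and FKBP5 (log2FC 0.44, edgeR adjusted p = 8.4e-10). The 2 lower ones were KLF9 (log2FC -0.72, edgeR adjusted p = 0.00036) and PER1 (log2FC -0.50, edgeR adjusted p = 4.3e-05, listed as AC129492.1).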
